A study of Mus musculus with 27 samples.

Results

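Livers that had lost SCAP in addition to HDAC3 were compared with livers that had lost HDAC3 alone, to describe which gene expression changes of HDAC3 loss were still present when SCAP was missing. The comparison used 7 of the 17 RNA libraries, out of 27 samples in all, chosen by their labels: 3 libraries of the double knockout (Double LKO) and 4 of the HDAC3 knockout (HDAC3 LKO). All came from flash-frozen livers of C57Bl/6 mice fed ad libitum and killed 10 days after injection of an AAV8 vector. HDAC3 LKO livers were from HDAC3 floxed mice given Cre recombinase, and Double LKO livers were from HDAC3/SCAP floxed mice given Cre, so both sides had lost HDAC3 and both had received Cre. For reference there were 4 libraries of SCAP floxed mice given Cre (SCAP LKO) and 6 controls given GFP, 2 from each of the 3 floxed lines. The 2 knockouts compared were bred as different floxed lines, so SCAP loss and a difference between the lines cannot be told apart from these 7 libraries, and values of the GFP controls of each line are given where they bear on a result. The same limit holds for HDAC3 loss in Double LKO against SCAP LKO, used below for the response without SCAP. The AAV8 vector is taken up mainly by hepatocytes, and whole liver was measured. The source of the Hdac3 and Scap reads that remained was not tested. The labels do not say that each library is a separate animal, and p-values measure the spread between libraries. In bulk tissue, fewer cells of a type and less RNA per cell cannot be told apart.

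SCAP is the escort protein that carries the membrane-bound SREBP transcription factors from the endoplasmic reticulum to the Golgi, where proteases release their active nuclear form. When sterols are plentiful, the INSIG proteins hold SCAP in the endoplasmic reticulum. SREBP2 mainly drives genes of cholesterol synthesis and uptake, and SREBP1c, the main product of Srebf1 in liver, mainly drives fatty acid synthesis. HDAC3 removes acetyl groups from histones as the catalytic partner of the corepressors NCoR and SMRT, and mouse liver that lacks it accumulates fat in lipid droplets.

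Promoters of genes that fell when SCAP was also lost are shown here because SREBPs are known to act together with the factor NF-Y, which binds the CCAAT box. The windows run from 250 bases before to 50 bases after the gene start, 5′ to 3′ on the gene's strand, and are RefSeq sequences of build GRCm38.p6, while the submitters' processing notes name mm9. Capitals mark CCAAT or its reverse complement ATTGG. Nsdhl and Sc4mol (Msmo1 in RefSeq) encode enzymes of sterol synthesis, and Fads2, shown for contrast, encodes a fatty acid desaturase.
Nsdhl (chrX:72918271-72918570, plus strand): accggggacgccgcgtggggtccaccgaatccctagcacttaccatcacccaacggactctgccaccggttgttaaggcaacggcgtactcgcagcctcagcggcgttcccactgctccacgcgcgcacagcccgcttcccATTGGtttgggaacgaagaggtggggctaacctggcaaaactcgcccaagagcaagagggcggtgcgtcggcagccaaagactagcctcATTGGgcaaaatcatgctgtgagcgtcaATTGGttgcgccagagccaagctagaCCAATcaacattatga
Sc4mol (chr8:64733529-64733828, minus strand): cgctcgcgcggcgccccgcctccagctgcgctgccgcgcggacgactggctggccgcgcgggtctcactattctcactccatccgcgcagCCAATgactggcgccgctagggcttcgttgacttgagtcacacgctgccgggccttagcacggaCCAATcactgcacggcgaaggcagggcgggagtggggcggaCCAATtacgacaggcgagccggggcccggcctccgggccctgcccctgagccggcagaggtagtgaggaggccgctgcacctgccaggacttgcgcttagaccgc
Fads2 (chr19:10101454-10101753, minus strand): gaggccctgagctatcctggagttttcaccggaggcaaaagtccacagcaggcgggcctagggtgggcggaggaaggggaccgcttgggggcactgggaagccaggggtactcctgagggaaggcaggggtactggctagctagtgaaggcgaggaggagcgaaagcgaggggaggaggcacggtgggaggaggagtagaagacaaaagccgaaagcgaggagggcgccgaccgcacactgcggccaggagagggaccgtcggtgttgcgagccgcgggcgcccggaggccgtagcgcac
The Nsdhl window held 4 CCAAT boxes, the Sc4mol window 3 and the Fads2 window 0. The window of the sterol synthesis gene Cyp51, not printed here, held 1. Fads2 fell as well, with a log2 fold change of -2.82 for Double LKO over HDAC3 LKO. Among genes lower in Double LKO than in HDAC3 LKO, 109 had at least 1 window, and 74 of these genes (67.9%) held CCAAT on either strand in any of their windows, beside 43.0% of the 9530 tested genes with a window. The share was 13 of 14 (92.9%) for cholesterol synthesis genes and 9 of 14 (64.3%) for fatty acid synthesis genes. The core of a sterol regulatory element, searched as TCACNCCAC on both strands, was found for 6 of the 109 genes (5.50%) and for 1.46% of those tested. The 6 included Gstm6 and Gstm7, paralogs near each other on chromosome 3 with similar sites and flanks, which are not independent matches. In cholesterol synthesis the core was found for 0 of 14 genes, and in fatty acid synthesis also for 0 of 14. The E-box CACGTG was found for 13.8% of the lower genes and 11.9% of those tested. Overlaps between patterns were not removed, a match is not a shown binding site, and windows without a match say nothing of the factor. The sterol element core is shown in capitals, with its flanks, for 2 genes described below, Ehhadh (reverse complement of the pattern) and Aldoc (forward).
Ehhadh (chr16:21787987-21788015, minus strand): attgacgttgGTGGTGTGAcccagcagtt
Aldoc (chr11:78322983-78323011, plus strand): ggcagaggaaTCACTCCACctcactactc

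Depth ranged from 3736618 to 20622671 counts over genes in the Double LKO libraries and from 5158695 to 8672408 in the HDAC3 LKO libraries. The shallowest, Double LKO library 2, stood apart from the others of its group on the second principal component (45.8, beside 1.55 and 8.70), and its hepatocyte markers summed to 74308 CPM (counts scaled to library size), beside 120336 and 132118. Markers of macrophages summed to 426 to 559 CPM in Double LKO and 430 to 565 CPM in HDAC3 LKO, those of stellate cells to 572 to 593 and 524 to 670 CPM, and those of endothelium to 564 to 704 and 659 to 805 CPM. Cholangiocyte markers summed to 37.0 to 86.0 and 30.9 to 53.2 CPM, and erythroid markers to 80.9 to 108 and 108 to 215 CPM. No hepatocyte, macrophage, stellate, cholangiocyte or erythroid marker was called between the groups, and 1 of 12 endothelial markers was (Lyve1, below). Over all genes tested, 1.20% were called lower and 0.108% higher. No lymphocyte marker and 1 neutrophil marker had enough counts to be tested. The part of these differences in the results below was not tested beyond leaving out library 2.

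Hdac3 was at 9.20, 11.5 and 12.4 CPM in Double LKO libraries 2, 3 and 4 and at 10.6, 7.46, 9.75 and 10.6 CPM in HDAC3 LKO libraries 1 to 4, while the GFP controls held 34.3 to 40.7 CPM. The groups overlapped, and the log2 fold change of Double LKO over HDAC3 LKO was 0.24 ± 0.13 (SE), with an adjusted p of 0.516. For Scap the values were 46.5, 45.4 and 50.8 CPM in Double LKO and 128, 150, 150 and 142 CPM in HDAC3 LKO. Every Double LKO library lay below every HDAC3 LKO library, and Scap differed by -1.58 ± 0.13 (adjusted p = 1.72e-07). Expression of both targets thus followed the labels. Here and below, log2 fold changes are of Double LKO (n = 3) over HDAC3 LKO (n = 4) unless another pair is named, are given with their SE, and carry Benjamini-Hochberg adjusted p-values of edgeR's quasi-likelihood test over 12009 genes.

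**Figure D1:**
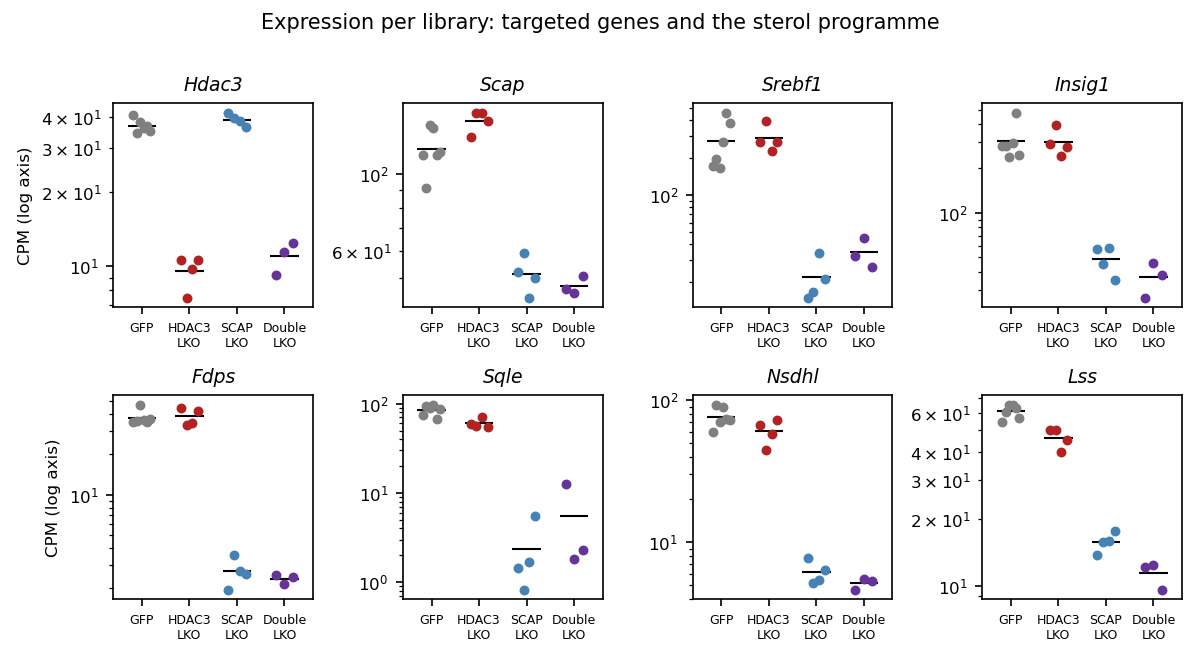
CPM (log axis) of Hdac3, Scap and 6 SREBP-pathway genes in each library of the 4 groups. Each point is a library and the bar is the group mean. Double LKO points lie with HDAC3 LKO for Hdac3, below SCAP LKO for Lss and with SCAP LKO for the other genes shown.

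More genes were lower than higher after the added loss of SCAP, and the lower genes included most of sterol and fatty acid synthesis. At an adjusted p under 0.05, 144 genes (1.20% of those tested) were lower in Double LKO than in HDAC3 LKO and 13 (0.108%) were higher, and the change was at least 2-fold for 95 of the lower and 6 of the higher genes. The balance depended on the tool, with 365 lower and 144 higher by limma with voom and 195 lower and 45 higher by DESeq2. The 7 libraries of the 2 groups did not overlap for any of the 144, nor for 1169 of all 12009 genes (9.73%). Without Double LKO library 2 the counts were 137 lower and 15 higher, and 111 of the 144 were still called. The number of higher genes depended on single libraries: it was 39 without Double LKO library 3, 25 without Double LKO library 4, 5 without HDAC3 LKO library 1 and 7 without HDAC3 LKO library 4. When the difference between the GFP controls of the 2 floxed lines was subtracted, 60 genes were lower and 7 higher, with 53 of the 144 and 0 of the 13 still called and all 144 of the same sign.

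SCAP loss gave a similar list with HDAC3 present, in a comparison that shares no library with this one. In SCAP LKO against GFP, 112 genes (0.933%) were lower and 31 (0.258%) higher. Of the 144 genes lower in Double LKO than HDAC3 LKO, 81 (56.25%) were also called lower there, and 139 had the same sign. Their median log2 fold change was -1.31 with HDAC3 lost, the comparison that chose them, and -0.95 with HDAC3 present. That choice tends to enlarge the first median, so a weaker effect with HDAC3 present cannot be read from the pair. Of the 13 higher genes, 3 were also called higher in SCAP LKO and 11 had the same sign.

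Among genes of the SREBP pathway itself, 4 of 11 tested were lower, Scap included, and 0 were higher. Srebf1 was at 32.0, 45.3 and 26.5 CPM in Double LKO and at 268, 392, 228 and 266 CPM in HDAC3 LKO. Every Double LKO library lay below every HDAC3 LKO library, and the difference was -3.06 ± 0.38 (adjusted p = 3.5e-05). Insig1, itself a target of SREBPs, was at 26.4, 45.8 and 38.1 CPM against 290, 392, 244 and 281 CPM, again without overlap, a difference of -3.02 ± 0.26 (adjusted p = 3.11e-07). HDAC3 loss alone left no called change in either gene, at 0.08 ± 0.28 for Srebf1 (adjusted p = 0.894) and -0.01 ± 0.19 for Insig1 (adjusted p = 0.989), against GFP. Srebf2 differed by -0.61 ± 0.14 (adjusted p = 0.0358), a call lost without any one of Double LKO libraries 3 and 4 and HDAC3 LKO libraries 1, 3 and 4 (adjusted p from 0.0518 to 0.177). Insig2, the other INSIG gene, differed from Insig1. It was at 263, 139 and 106 CPM in Double LKO and 174, 122, 182 and 224 CPM in HDAC3 LKO, overlapping ranges, while the GFP controls held 41.9 to 64.0 CPM and SCAP LKO 37.5 to 58.5 CPM. HDAC3 loss raised Insig2 by 1.69 ± 0.20 with SCAP present (HDAC3 LKO against GFP, adjusted p = 2.19e-05) and by 1.73 ± 0.24 with SCAP absent (Double LKO against SCAP LKO, adjusted p = 0.000206).

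Every tested enzyme of cholesterol synthesis fell: 19 of 19, with a median of -2.14 beside a median of 0.01 over all genes, and 19 without library 2. Fdps, which makes farnesyl pyrophosphate, was at 2.53, 2.14 and 2.42 CPM in Double LKO and 44.1, 32.9, 34.4 and 42.1 CPM in HDAC3 LKO. The groups did not overlap, and the log2 fold change was -4.02 ± 0.17 (adjusted p = 3.61e-11). Sqle, the squalene epoxidase, was at 12.6, 1.80 and 2.27 CPM against 59.4, 56.9, 70.1 and 54.9 CPM. Library 2 was the high one in Double LKO, and the difference of -3.85 ± 0.44 (adjusted p = 1.46e-05) was -4.83 without it. Nsdhl and Sc4mol, whose promoters are shown above, act in the removal of the methyl groups at carbon 4 of the sterol. Nsdhl was at 4.60, 5.51 and 5.30 CPM against 66.8, 44.2, 57.4 and 72.2 CPM, a difference of -3.52 ± 0.20 (adjusted p = 7.54e-10). Sc4mol was at 16.3, 11.0 and 10.1 CPM against 155, 106, 145 and 146 CPM, a difference of -3.52 ± 0.19 (adjusted p = 7.5e-10).

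Other enzymes of the list fell by differing amounts. Cyp51, the lanosterol demethylase, differed by -3.28 ± 0.19, Lss, the lanosterol synthase, by -2.06 ± 0.12, and Fdft1, the squalene synthase, by -0.95 ± 0.12 (adjusted p = 3.57e-05). HDAC3 loss had lowered 4 genes of the list, and all 4 fell further. One of them was Lss, at 54.6 to 65.1 CPM in GFP, 39.8 to 50.2 CPM in HDAC3 LKO, 13.8 to 17.7 CPM in SCAP LKO and 9.55 to 12.4 CPM in Double LKO, so that its 4 groups did not overlap. Of 14 genes of sterol uptake and transport, 4 were lower and 0 higher. Stard4, a cytosolic sterol carrier, was at 10.3, 12.1 and 15.8 CPM against 48.7, 54.6, 59.9 and 46.8 CPM, a difference of -1.99 ± 0.14 (adjusted p = 2.64e-08).

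Fatty acid synthesis was the other list to fall, with 14 of 18 tested members lower (13 without library 2), 0 higher and a median of -1.74. Scd1, the stearoyl-CoA desaturase, had the lowest log2 fold change of any called gene. It was at 11.3, 16.8 and 14.9 CPM in Double LKO and at 17027, 22008, 12048 and 22215 CPM in HDAC3 LKO, with GFP controls from 2691 to 7671 CPM (median 3623) and SCAP LKO from 13.0 to 39.8 CPM. The Double LKO libraries lay within or just below the range of SCAP LKO and 1263-fold below HDAC3 LKO (-10.30 ± 0.58, adjusted p = 7.54e-10). Reads of Scd1 could in part be shared with close paralogs of the family, which the counting may have split. Fasn, the fatty acid synthase, was at 62.3, 108 and 93.4 CPM against 1136, 1583, 908 and 1290 CPM, a difference of -3.80 ± 0.32 (adjusted p = 2.37e-07). The delta-5 desaturase Fads1 was at 44.4, 20.7 and 26.8 CPM against 403, 540, 374 and 377 CPM (-3.82 ± 0.22, adjusted p = 7.54e-10).

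Other members of the list were Acly, Acaca and Slc25a1. Acly, which splits citrate, differed by -1.57 ± 0.24 (adjusted p = 0.000614), Acaca, the cytosolic acetyl-CoA carboxylase, by -1.44 ± 0.17 (adjusted p = 1.93e-05), and the mitochondrial citrate carrier Slc25a1 by -0.95 ± 0.09 (adjusted p = 1.25e-06). Thrsp, which promotes lipogenesis, was at 25.8, 383 and 176 CPM in Double LKO and 848, 1309, 1012 and 952 CPM in HDAC3 LKO. Its groups did not overlap, but the spread within Double LKO was wide and the difference of -2.39 ± 0.73 did not pass the test (adjusted p = 0.146). In the list of NADPH supply, 1 of 8 tested genes was lower, Idh1, at -0.64 ± 0.13 (adjusted p = 0.0146). That call was lost without Double LKO library 2 or 4 or HDAC3 LKO library 1 (adjusted p from 0.0522 to 0.0703).

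**Figure D2:**
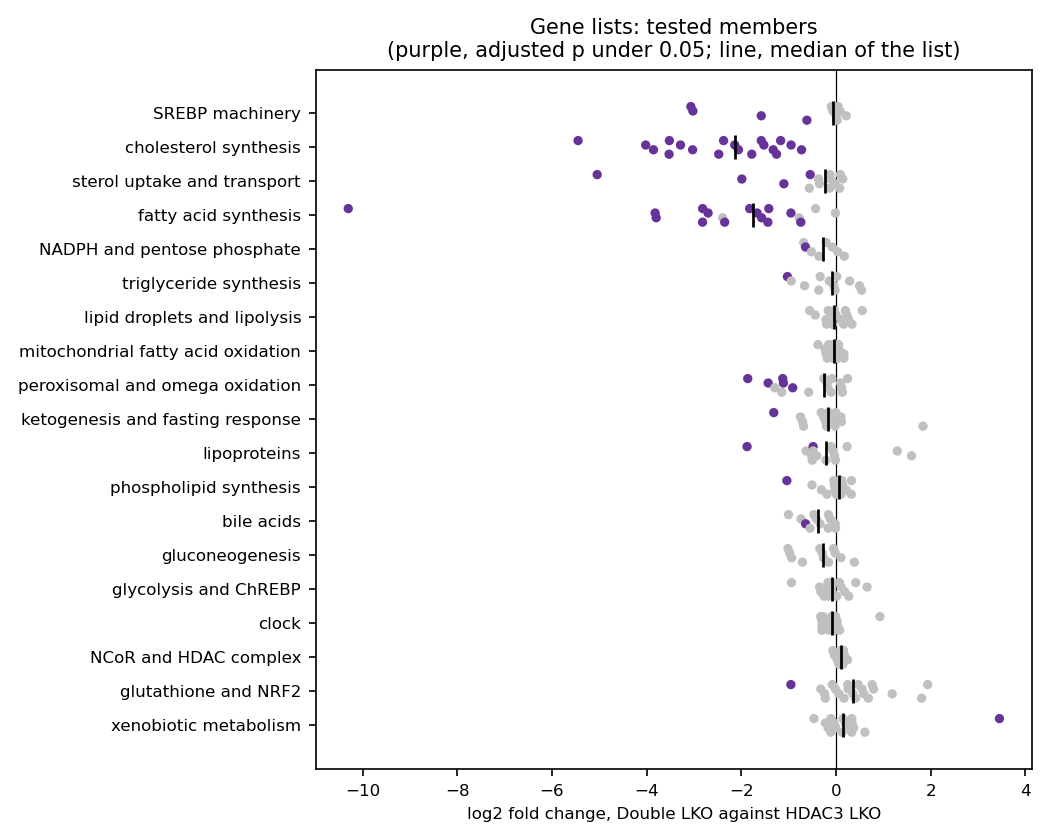
The log2 fold change of Double LKO over HDAC3 LKO for each tested member of 19 gene lists. Purple points passed an adjusted p of 0.05 and the vertical line is the list's median. Cholesterol synthesis and fatty acid synthesis stand left of zero, with medians of -2.14 and -1.74.

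The question of which HDAC3-loss changes need SCAP was put to the genes that HDAC3 loss had changed. In HDAC3 LKO against GFP, 946 genes (7.88%) were higher and 720 (6.00%) lower. Of the 946, 49 (5.18%, the reversed genes) were lower in Double LKO than in HDAC3 LKO and 2 were higher. Another 559 (59.1%) were not called there but were still above GFP in Double LKO, and 336 passed neither test. Of the 49, 20 were below GFP in Double LKO and 29 did not differ from it by the test. A place among the 49 shows a lower level after SCAP loss. It does not by itself show that the rise with HDAC3 loss needed SCAP. Of the 720, 2 were higher in Double LKO than in HDAC3 LKO, 9 were lower still, 351 remained below GFP and 358 passed neither test. These classes rest on comparisons that share the HDAC3 LKO libraries, and the changes of a gene in them are not independent. The 2 genes in the class lowered by HDAC3 loss and higher in Double LKO became 5 without Double LKO library 3, 4 without Double LKO library 2 or HDAC3 LKO library 2 or 3, 1 without Double LKO library 4 or HDAC3 LKO library 1, and 0 without HDAC3 LKO library 4. With the controls split by line, HDAC3 LKO was set against the 2 GFP libraries of its own line, and 513 genes were raised instead of 946. Of these 513, 30 were in the reversed class, and with the line difference subtracted 10 were.

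A comparison sharing no library with HDAC3 LKO against GFP gave the response to HDAC3 loss in the absence of SCAP. Double LKO and SCAP LKO were also bred as different floxed lines. HDAC3 loss and a line difference cannot be told apart in this comparison, and no fit subtracted that difference there. In Double LKO against SCAP LKO, 598 genes (4.98%) were higher and 361 (3.01%) lower. Of the 946 genes raised with SCAP present, 440 (46.5%) were also called higher without SCAP, 1 was called lower (Fads2) and 903 had the same sign, with median log2 fold changes of 0.56 and 0.46. Of the 720 lowered genes, 216 (30.0%) were also called lower, none was called higher and 686 had the same sign, with medians of -0.46 and -0.34. Both sets were chosen in the comparison with SCAP present, which tends to enlarge the medians there. A smaller response without SCAP cannot be read from these medians. Of the 49 raised and reversed genes, 12 were called higher in Double LKO than in SCAP LKO and 1 lower. Among the same 49, 34 were above 0 there and 15 were not. The reversed and kept classes were chosen with Double LKO and HDAC3 LKO libraries that also enter these responses. A smaller response without SCAP in reversed genes is therefore in part built in, and values of single genes below are a description. The difference between the responses with and without SCAP was tested gene by gene and gave 0 calls by edgeR (0% of 12009), with 601 genes at an unadjusted p under 0.05. By limma with voom 6 genes were called, Scd1, Fads1 and Fads2 among them, and by DESeq2 15.

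**Figure D3:**
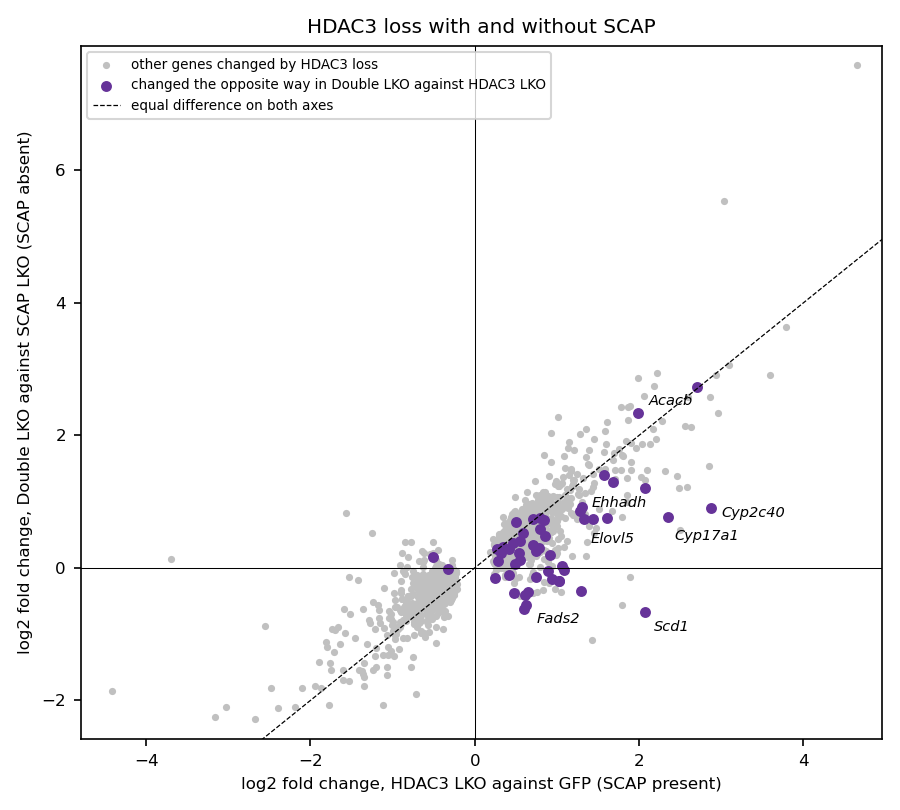
Log2 fold changes of the 1666 genes changed by HDAC3 loss, with SCAP present (HDAC3 LKO against GFP, horizontal) and with SCAP absent (Double LKO against SCAP LKO, vertical), which share no library. Purple points are the 51 genes that changed the opposite way in Double LKO against HDAC3 LKO. Most grey points have the same sign on both axes, and purple points reach from near the dashed line of equal differences (Acacb) to below zero (Scd1, Fads2).

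Of 8 fatty acid synthesis genes raised by HDAC3 loss, 7 were lower in Double LKO than in HDAC3 LKO, beside 5.18% of all 946 raised genes. Among these genes the response without SCAP took different forms. Scd1 was raised by 2.08 ± 0.31 with SCAP present and had a log2 fold change of -0.66 ± 0.41 without SCAP (adjusted p = 0.372). The difference of the responses was -2.74 ± 0.52, with an adjusted p of 0.248 by edgeR, 0.0249 by limma with voom and 0.0012 by DESeq2. Fads2, the delta-6 desaturase, was at 96.4, 86.5 and 85.1 CPM in Double LKO, 114 to 158 CPM in SCAP LKO, 376 to 429 CPM in GFP and 556, 865, 564 and 528 CPM in HDAC3 LKO. The 4 groups did not overlap, and HDAC3 loss raised the gene by 0.63 ± 0.12 with SCAP (adjusted p = 0.00213) and changed it by -0.55 ± 0.15 without (adjusted p = 0.0324). The difference was -1.18 ± 0.20, with an adjusted p of 0.126 by edgeR, 0.00531 by limma with voom and 4.05e-06 by DESeq2. Fads1, not raised by HDAC3 loss at the test's threshold, also fell without SCAP (-0.97 ± 0.20, adjusted p = 0.00442).

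Acss2, which activates acetate, and Me1, the malic enzyme that supplies NADPH, had the same pattern at smaller size. Acss2 was at 46.5, 74.0 and 61.4 CPM in Double LKO, 356, 292, 222 and 373 CPM in HDAC3 LKO, 106 to 210 CPM in GFP and 54.7 to 78.2 CPM in SCAP LKO. HDAC3 loss raised it by 0.94 ± 0.19 with SCAP (adjusted p = 0.00209), and the value without SCAP was -0.17 ± 0.23 (adjusted p = 0.746). Me1 was raised by 0.62 ± 0.18 with SCAP (adjusted p = 0.0248), and its value without was -0.41 ± 0.23 (adjusted p = 0.312). Neither difference of responses passed the test (adjusted p = 0.558 for Acss2 and 0.686 for Me1).

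Acacb, the acetyl-CoA carboxylase of the mitochondrial surface, differed from this pattern. It was at 51.5, 48.6 and 30.5 CPM in Double LKO, 262, 260, 292 and 302 CPM in HDAC3 LKO, 5.98 to 13.6 CPM in SCAP LKO and 28.5 to 95.9 CPM in GFP. Double LKO thus lay within the range of the controls, below HDAC3 LKO (-2.70 ± 0.34, adjusted p = 4.96e-05) and above every SCAP LKO library. HDAC3 loss raised Acacb by 1.99 ± 0.26 with SCAP (adjusted p = 4.32e-05) and by 2.34 ± 0.37 without (adjusted p = 0.000468). The elongase Elovl6 was also raised in both settings, by 1.28 ± 0.21 (adjusted p = 0.000384) and 0.85 ± 0.26 (adjusted p = 0.0466). Elovl5, which elongates polyunsaturated fatty acids, was at 131, 60.3 and 56.5 CPM in Double LKO and 631, 607, 394 and 670 CPM in HDAC3 LKO, a difference of -2.82 ± 0.28 (adjusted p = 2.27e-06). It was raised by 1.62 ± 0.21 with SCAP (adjusted p = 4.3e-05), and its value without was 0.75 ± 0.26 (adjusted p = 0.0866). The elongase Elovl3 was the raised gene of the list that was not reversed, at 64.4, 71.5 and 60.4 CPM against 107, 62.5, 133 and 149 CPM (-0.78 ± 0.27, adjusted p = 0.252), and HDAC3 loss raised it by 1.32 ± 0.28 without SCAP (adjusted p = 0.00588). With the difference between floxed lines subtracted, Acacb (-1.45, adjusted p = 0.218) and Elovl6 (-0.92, adjusted p = 0.45) were no longer called between Double LKO and HDAC3 LKO.

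**Figure D4:**
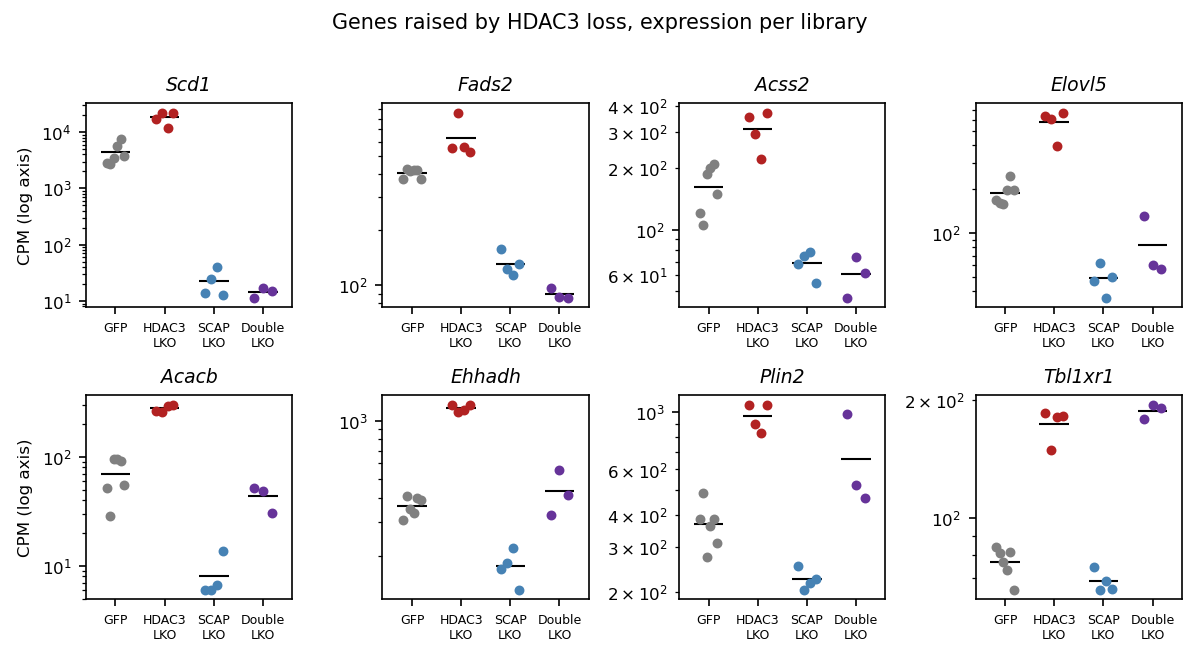
CPM (log axis) in each library of the 4 groups for 8 genes raised by HDAC3 loss. Each point is a library and the bar is the group mean. Double LKO lies within or below the SCAP LKO range for Scd1, Fads2 and Acss2, above SCAP LKO and near GFP for Acacb and Ehhadh, and with HDAC3 LKO for Tbl1xr1.

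None of the 17 tested genes of lipid droplets and lipolysis was called between Double LKO and HDAC3 LKO by edgeR, with a median of -0.03. Over all genes tested, 1.20% were called lower and 0.108% higher, so no call among 17 is near that share. Of the 12 that HDAC3 loss had raised, 10 remained above GFP in Double LKO, and 9 were called higher in Double LKO than in SCAP LKO. Over all 946 raised genes, 59.1% remained above GFP without a call between the knockouts. In the same 946, 46.5% were called higher in Double LKO than in SCAP LKO. Plin2, the main coat protein of hepatocyte droplets, was at 989, 522 and 467 CPM in Double LKO, 1067, 900, 832 and 1071 CPM in HDAC3 LKO, 275 to 487 CPM in GFP and 204 to 253 CPM in SCAP LKO. HDAC3 loss raised it by 1.40 ± 0.18 with SCAP (adjusted p = 3.9e-05) and by 1.55 ± 0.21 without (adjusted p = 0.000186). Library 2 was the only Double LKO library within the HDAC3 LKO range: the difference of -0.56 ± 0.22 (adjusted p = 0.331) became -0.97 (adjusted p = 0.00421) without it. Cidec, which fuses droplets, was at 69.2, 11.0 and 12.7 CPM against 23.6, 14.8, 15.8 and 37.2 CPM, so its mean in Double LKO rested on library 2, and its value went from 0.34 ± 0.45 (adjusted p = 0.854) to -0.92 (adjusted p = 0.13) without that library. The triglyceride lipase Pnpla2 was at 72.7, 90.2 and 80.0 CPM against 71.3, 84.3, 81.7 and 86.9 CPM, with 38.5 to 48.5 CPM in GFP, and was raised by 0.87 ± 0.10 with SCAP (adjusted p = 9.76e-06) and 0.95 ± 0.11 without (adjusted p = 6.35e-05).

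In triglyceride synthesis 1 of 12 tested genes was lower and 0 higher, with a median of -0.09. Over all genes tested, 1.20% were called lower and 0.108% higher. The called gene was Gpam, the mitochondrial enzyme of the first acylation of glycerol 3-phosphate. It was at 223, 327 and 313 CPM in Double LKO, 623, 742, 427 and 552 CPM in HDAC3 LKO and 248 to 441 CPM in GFP, a difference of -1.03 ± 0.19 (adjusted p = 0.00469) that put Double LKO within the range of GFP but for 1 library below it. Gpd1, which makes glycerol 3-phosphate, was at 1051, 1387 and 1192 CPM against 900, 587, 893 and 943 CPM, and at 324 to 393 CPM in GFP. HDAC3 loss raised Gpd1 by 1.20 ± 0.12 with SCAP (adjusted p = 4.29e-06) and 1.32 ± 0.15 without (adjusted p = 3.18e-05). It was not called between Double LKO and HDAC3 LKO (0.54 ± 0.15, adjusted p = 0.0851) except without library 2 (0.63, adjusted p = 0.0414).

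Mitochondrial fatty acid oxidation genes were not called in any of 20 cases by edgeR, beside 1.20% of all genes called lower and 0.108% higher. Their median was -0.04, and 8 of the 11 that HDAC3 loss had raised remained above GFP, beside 59.1% of all raised genes. Acadm, the medium-chain acyl-CoA dehydrogenase, was at 488, 644 and 572 CPM against 531, 473, 466 and 553 CPM, overlapping ranges above the 244 to 291 CPM of GFP. Peroxisomal and omega oxidation differed from this: 5 of 17 tested genes were lower and 0 higher, with a median of -0.25, and 4 were lower without library 2. Ehhadh, the peroxisomal bifunctional enzyme whose promoter site is shown above, was at 326, 556 and 413 CPM in Double LKO and 1199, 1115, 1137 and 1209 CPM in HDAC3 LKO. GFP controls were at 306 to 408 CPM and SCAP LKO at 133 to 218 CPM. Double LKO lay near GFP and below HDAC3 LKO (-1.43 ± 0.17, adjusted p = 2.91e-05), and HDAC3 loss raised Ehhadh by 1.68 ± 0.14 with SCAP (adjusted p = 5.19e-07) and by 1.29 ± 0.17 without (adjusted p = 8.66e-05).

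The peroxisomal thiolase Acaa1b was at 738, 1273 and 891 CPM against 2091, 1795, 1706 and 2757 CPM, a difference of -1.11 ± 0.23 (adjusted p = 0.0146). That call was lost without Double LKO library 2 or 4 or HDAC3 LKO library 4 (adjusted p from 0.0637 to 0.0851). Cyp4a32, a fatty acid omega-hydroxylase, differed by -1.12 ± 0.19 (adjusted p = 0.00164), with a value of 0.12 ± 0.19 for HDAC3 loss without SCAP (adjusted p = 0.797). Reads of Cyp4a genes may be split among close paralogs, as may those of Acaa1b.

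Other lists held 1 or 2 called members each. Pltp, the phospholipid transfer protein of plasma, was at 16.3, 17.8 and 18.7 CPM in Double LKO and 62.3, 59.9, 37.7 and 102 CPM in HDAC3 LKO, without overlap, and 25.5 to 43.4 CPM in GFP. It differed by -1.88 ± 0.24 (adjusted p = 5.6e-05), was raised by 1.03 ± 0.19 with SCAP (adjusted p = 0.00103) and had a value of -0.20 ± 0.25 without (adjusted p = 0.72). Pcyt2, of phosphatidylethanolamine synthesis, was at 148, 169 and 180 CPM against 327, 358, 316 and 362 CPM (-1.04 ± 0.11, adjusted p = 3.68e-06). Cyp27a1, of bile acid synthesis, differed by -0.64 ± 0.15 (adjusted p = 0.0376), a call lost without Double LKO library 2 or 4 or HDAC3 LKO library 1, 3 or 4 (adjusted p from 0.0711 to 0.151). Pdk4, the pyruvate dehydrogenase kinase of fasting, differed by -1.31 ± 0.31 (adjusted p = 0.0385) and kept its call in 1 of the 7 fits that each left out a library, the one without HDAC3 LKO library 3 (adjusted p from 0.0533 to 0.186 in the others). Gsta3, a glutathione transferase with close paralogs, differed by -0.95 ± 0.17 (adjusted p = 0.00343). Lyve1, a marker of sinusoidal endothelium, was at 9.66, 12.4 and 8.99 CPM against 17.2, 35.8, 17 and 19.1 CPM (-1.13 ± 0.23, adjusted p = 0.0134), and lost its call without Double LKO library 4 (adjusted p = 0.106). The summed endothelial markers overlapped between the groups.

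Of the 49 reversed genes, 30 were in none of the lists. H2-Q10, a secreted class I histocompatibility protein of liver with close paralogs, was at 472, 416 and 402 CPM in Double LKO, 1905, 2091, 1927 and 2179 CPM in HDAC3 LKO, 1214 to 1595 CPM in GFP and 283 to 316 CPM in SCAP LKO, so that the 4 groups were apart. It was chosen after its values were seen. Its difference was -2.24 ± 0.12 (adjusted p = 7.54e-10), and HDAC3 loss raised it by 0.59 ± 0.10 with SCAP (adjusted p = 0.000363) and 0.53 ± 0.11 without (adjusted p = 0.00575). The retinol dehydrogenase Rdh11, also chosen after its values were seen, was at 14.7, 11.9 and 10.9 CPM against 60, 49.4, 47.7 and 55.5 CPM (-2.13 ± 0.12, adjusted p = 7.54e-10). It was raised by 0.42 ± 0.09 with SCAP (adjusted p = 0.0042), with a value of -0.11 ± 0.13 without (adjusted p = 0.69). Slco2a1, a prostaglandin transporter, was at 38.9, 33.9 and 40.6 CPM against 72.6, 95.2, 76.3 and 74.9 CPM (-1.08 ± 0.14, adjusted p = 8.02e-05), and was raised by 0.48 ± 0.12 with SCAP (adjusted p = 0.00849) with a value of -0.38 ± 0.14 without (adjusted p = 0.12). Atg16l2, a homologue of an autophagy protein, was raised both with SCAP (1.31 ± 0.16, adjusted p = 2.32e-05) and without (0.93 ± 0.21, adjusted p = 0.00924).

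Several reversed genes encode cytochrome P450 enzymes whose expression in mouse liver is known to depend on sex or hormones. Cyp17a1, the steroid 17-hydroxylase, was at 1.84, 3.71 and 4.14 CPM in Double LKO, 13.6, 29.4, 39.4 and 13.8 CPM in HDAC3 LKO, 2.46 to 7.31 CPM in GFP and 0.642 to 3.39 CPM in SCAP LKO. It stood above GFP in every HDAC3 LKO library and in no Double LKO library, a difference of -2.76 ± 0.42 (adjusted p = 0.000447). Cyp2c40 was at 0.460, 1.57 and 1.57 CPM against 7.77, 14.9, 8.92 and 18.3 CPM (-3.17 ± 0.37, adjusted p = 1.83e-05). Cyp4a12b was at 9.20, 26.1 and 20.9 CPM against 74.5, 62.5, 140 and 91.3 CPM (-2.23 ± 0.32, adjusted p = 0.000222). HDAC3 loss with SCAP present raised Cyp17a1 by 2.35 ± 0.32 (adjusted p = 7.79e-05), and its value without SCAP was 0.77 ± 0.53 (adjusted p = 0.443). For Cyp2c40 these values were 2.87 ± 0.29 (adjusted p = 4.29e-06) and 0.90 ± 0.53 (adjusted p = 0.355), and for Cyp4a12b 1.03 ± 0.24 (adjusted p = 0.00768) and -0.19 ± 0.32 (adjusted p = 0.804). The difference of the responses passed edgeR's test for none of the 3 (adjusted p = 0.96, 0.828 and 0.828), and reads of Cyp2c and Cyp4a genes may be split among paralogs. With the line difference subtracted, none of the 3 was called between Double LKO and HDAC3 LKO, at log2 fold changes of -2.03, -2.63 and -1.45 (adjusted p = 0.493, 0.244 and 0.375). Of the male-biased list, 2 of 12 tested genes were lower, the paralogs Cyp4a12a and Cyp4a12b, and 10 were not called (median -0.25). Of the female-biased list 1 of 7 was lower, Cyp17a1, and 6 were not called (median -0.01). Over all genes tested, 1.20% were called lower and 0.108% higher.

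Several changes of HDAC3 loss were present in Double LKO at overlapping levels. Slc16a5, a monocarboxylate transporter, was at 139, 72.4 and 74.0 CPM in Double LKO, 69.0, 86.4, 56.6 and 73.4 CPM in HDAC3 LKO, 14.6 to 24.6 CPM in SCAP LKO and 7.01 to 12.4 CPM in GFP, a response of 2.96 ± 0.20 with SCAP (adjusted p = 3.33e-08) and 2.34 ± 0.23 without (adjusted p = 1.19e-05). Tbl1xr1, a subunit of the corepressor complex of HDAC3, was at 179, 195 and 191 CPM against 185, 149, 181 and 182 CPM, while GFP held 65.2 to 83.9 CPM. Its response was 1.18 ± 0.08 with SCAP (adjusted p = 4.69e-08) and 1.46 ± 0.10 without (adjusted p = 5.51e-08). Pctp, a phosphatidylcholine transfer protein, was raised by 1.02 ± 0.10 with SCAP (adjusted p = 2.47e-06) and by 1.07 ± 0.12 without (adjusted p = 3.18e-05). The clock activator Arntl was at 3.45, 6.30 and 6.01 CPM against 5.22, 4.13, 7.05 and 5.90 CPM, with 0.639 to 1.66 CPM in GFP. Its response was 2.18 ± 0.24 with SCAP (adjusted p = 1.22e-05) and 2.10 ± 0.29 without (adjusted p = 0.000201).

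Over all 946 raised genes, 59.1% remained above GFP without a call between the knockouts, and the counts of single lists are given beside that share. All 10 glutathione and NRF2 genes raised by HDAC3 loss remained above GFP in Double LKO, and 7 of them were called higher without SCAP. Of 9 raised genes of xenobiotic metabolism, 7 remained above GFP and 0 were reversed. Over all raised genes 5.18% were reversed, so 0 of 9 is near that share. The 3 raised clock genes and the 3 raised genes of the NCoR and HDAC complex all remained above GFP. Among genes that HDAC3 loss lowered, Nox4, an NADPH oxidase, was at 5.52, 17.5 and 17.6 CPM in Double LKO, 14.2, 9.59, 10.8 and 13.2 CPM in HDAC3 LKO and 43.7 to 58.1 CPM in GFP. It changed by -2.10 ± 0.20 with SCAP (adjusted p = 3.02e-06) and -1.82 ± 0.23 without (adjusted p = 7.29e-05). Hao1, the hydroxyacid oxidase of glyoxylate metabolism, changed by -1.24 ± 0.16 (adjusted p = 4.91e-05) and -1.54 ± 0.19 (adjusted p = 7.62e-05).

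Some genes that HDAC3 loss had changed were moved further the same way by SCAP loss, 9 lower and 2 higher. The glycolytic aldolase Aldoc, whose promoter site is shown above, was at 14.3 to 25.5 CPM in GFP, 9.84, 6.79, 5.18 and 6.10 CPM in HDAC3 LKO, 1.69 to 4.35 CPM in SCAP LKO and 0.460, 1.35 and 0.859 CPM in Double LKO, 4 groups that did not overlap. Each loss lowered it in either background, HDAC3 loss by -1.61 ± 0.20 with SCAP (adjusted p = 3.58e-05) and -1.69 ± 0.38 without (adjusted p = 0.00827), and SCAP loss by -2.82 ± 0.24 with HDAC3 (adjusted p = 1.73e-07) and -2.90 ± 0.33 without (adjusted p = 1.54e-05). The 2 genes raised by HDAC3 loss and raised further were Mab21l3 and Csrp2. Mab21l3 was at 6.67, 2.47 and 4.65 CPM against 1.70, 1.20, 1.24 and 2.24 CPM, with 0 to 0.176 CPM in GFP (1.48 ± 0.32, adjusted p = 0.0206). Its call was lost without Double LKO library 2 or 4 or HDAC3 LKO library 1, 2 or 3 (adjusted p from 0.0613 to 0.111). Csrp2, a LIM-domain protein, differed by 0.41 ± 0.10 (adjusted p = 0.0476), a call kept in 1 of the 7 fits that left out a library, without HDAC3 LKO library 3 (adjusted p from 0.0522 to 0.177 in the others).

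No list held more than 1 of the 13 genes higher in Double LKO. Only 2 kept their call without each of the 7 libraries in turn. Id3, an inhibitor of helix-loop-helix factors, was at 59.3, 67.3 and 99.0 CPM in Double LKO and 28.2, 30.5, 39.4 and 33.0 CPM in HDAC3 LKO, without overlap (1.22 ± 0.20, adjusted p = 0.00159). The GFP controls of the double-floxed line were higher than those of the HDAC3-floxed line by 0.77 for this gene (adjusted p = 0.263), and with that subtracted the difference was 0.46 (adjusted p = 0.83). Gpr108 was at 48.3, 47.9 and 41.7 CPM against 31.0, 28.9, 29.9 and 32.1 CPM (0.59 ± 0.10, adjusted p = 0.0018). Enho, which encodes the secreted peptide adropin, was at 31.0, 27.4 and 38.5 CPM against 13.1, 18.8, 17.4 and 6.71 CPM (1.20 ± 0.22, adjusted p = 0.00469), and SCAP loss raised it also with HDAC3 present (1.47 ± 0.19, adjusted p = 5.51e-05). Its call was lost without Double LKO library 4 (adjusted p = 0.0527).

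Haptoglobin (Hp) was the 1 called gene of 18 in the acute phase list, at 7340, 5345 and 4898 CPM against 2790, 3331, 3764 and 2809 CPM (0.89 ± 0.21, adjusted p = 0.0413). The call was lost without Double LKO library 2 (0.69, adjusted p = 0.167) or HDAC3 LKO library 1, 2 or 4 (adjusted p from 0.0826 to 0.144). Cyp2b9 was the 1 of 17 in xenobiotic metabolism, at 218, 231 and 44.4 CPM against 8.14, 39.8, 1.66 and 6.51 CPM (3.45 ± 0.73, adjusted p = 0.0159). Its call was lost without Double LKO library 3 or HDAC3 LKO library 1 or 4 (adjusted p from 0.0522 to 0.0795). The 2 genes lowered by HDAC3 loss and higher in Double LKO were Lrrc42 and Cdhr5. Cdhr5, a cadherin-related protein, was at 66.7, 74.7 and 79.6 CPM against 49.1, 55, 46.5 and 49.4 CPM (0.56 ± 0.11, adjusted p = 0.00577), with its call lost without Double LKO library 4 (adjusted p = 0.0527). Lrrc42 was at 10.8, 10.8 and 11.5 CPM against 6.68, 6.93, 7.88 and 5.29 CPM (0.73 ± 0.18, adjusted p = 0.0479), a call kept in 1 of the 7 fits (adjusted p from 0.0704 to 0.161 in the others).

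Other lists with no called member in edgeR's comparison of Double LKO with HDAC3 LKO included glycolysis (18 tested, Aldoc not among them), gluconeogenesis (12), the clock (17), the NCoR and HDAC complex (11), stress response (18), interferon response (16) and cell cycle (13). Over all genes tested, 1.20% were called lower and 0.108% higher, so no call in a list of this size is near that share. Of all genes tested, 1313 had an unadjusted p under 0.05.

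Some of the 144 lower genes differed between the control livers of the 2 lines in the same direction. Between the GFP controls of the double-floxed and the HDAC3-floxed line (2 libraries each), 24 genes differed by edgeR, and 9 of the 24 lay on chromosome 9, which carries Scap and 5.49% of the tested genes. The others lay elsewhere, with Tcn2, Gal3st1, Arl4d, Tbc1d10a, Sec14l4 and Ccdc157 on chromosome 11, which carries neither Scap nor Hdac3. Rpl29, a ribosomal protein gene on chromosome 9, was at 0.920, 0.450 and 0.455 CPM in Double LKO and 22.3, 26.9, 22.8 and 23.2 CPM in HDAC3 LKO, but also at 0.681 and 0.704 CPM in GFP livers of the double-floxed line and 26.7 and 19.4 CPM in those of the HDAC3-floxed line. Its difference of -5.47 ± 1.22 (adjusted p = 0.0251) was -0.44 (adjusted p = 0.978) after subtraction of the line difference. Its call was also lost without Double LKO library 3 or 4 or HDAC3 LKO library 1 or 2 (adjusted p from 0.0505 to 0.156). Glb1, the lysosomal beta-galactosidase gene of the same chromosome, differed by -1.19 ± 0.26 (adjusted p = 0.0211) and by -0.27 (adjusted p = 0.905) after subtraction, and lost its call without Double LKO library 2 or 4 or HDAC3 LKO library 1 or 2 (adjusted p from 0.0518 to 0.111). These were the 2 genes called in both comparisons. Mfsd2a, a lysophospholipid transporter not called between the lines, was at 1.61, 6.97 and 1.21 CPM in Double LKO, 45.8, 115, 28.2 and 74.5 CPM in HDAC3 LKO, 20.3 and 22.2 CPM in double-floxed GFP and 79.9 and 79.8 CPM in HDAC3-floxed GFP. Its difference went from -4.42 ± 0.67 (adjusted p = 0.000454) to -2.51 (adjusted p = 0.316) with the line difference subtracted. Fdps, Nsdhl, Scd1 and Fads2 kept their calls under that subtraction, at -3.78 (adjusted p = 1.31e-07), -3.46 (adjusted p = 3.45e-06), -9.60 (adjusted p = 3.96e-07) and -2.76 (adjusted p = 1.02e-05). The calls of Srebf2, Acly, Idh1, Gpam, Acaa1b, Cyp4a32, Pdk4, Cyp27a1, Gsta3, Lyve1, Atg16l2 and Slco2a1 were lost under it, with adjusted p from 0.101 to 0.937 and the same sign. Their log2 fold changes were as large for some, as Gpam at -1.17, Gsta3 at -0.99, Acaa1b at -1.08 and Pdk4 at -1.31, and smaller for others, as Cyp27a1 at -0.24 and Srebf2 at -0.36. Also lost under the subtraction were the calls of Mab21l3, Csrp2, Lrrc42, Cdhr5, Enho, Hp, Cyp2b9 and Gpr108, with adjusted p from 0.114 to 0.98. Gpr108 was then at 0.58, Enho at 1.51 and Cdhr5 at 0.47, while Mab21l3 was at 0.82. A call lost under the subtraction, which rests on 2 controls a line, does not show a line difference. In a fit of the 7 libraries alone, with log2 fold changes close to those of the fit of all libraries, the calls of Srebf2, Idh1, Gpam, Acaa1b, Cyp4a32, Pdk4, Cyp27a1, Gsta3, Lyve1, Atg16l2, Mab21l3, Csrp2, Lrrc42, Enho, Hp and Cyp2b9 were lost (adjusted p from 0.0717 to 0.221).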

How the data were processed

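RNA was measured in 17 libraries of whole mouse liver, 7 of them in the comparison reported. The values were raw read counts per transcript, deposited by the authors as 1 table. Per the submitters' processing notes, Bowtie, HOMER, edgeR and mm9 were used, with no role or version stated. Per the labels' protocols, RNA was extracted with TRIzol and made into TruSeq libraries. Of 28644 transcripts, the 22869 marked as best for their gene were kept. Columns were matched to groups by their names, and 17 columns of per-sample values were not used.

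The 12009 genes with enough counts (filterByExpr) were fitted in edgeR 4.0.16 (R 4.3.3) with TMM scaling and the quasi-likelihood F-test, in 1 fit of all 17 libraries in 4 groups. Calls used a Benjamini-Hochberg adjusted p under 0.05. SEs were derived from the log2 fold change and its F statistic and are approximate, and CPM values are TMM-scaled. The difference of responses was (Double LKO minus SCAP LKO) minus (HDAC3 LKO minus GFP). A raised gene was called reversed if lower in Double LKO than in HDAC3 LKO, and kept if not called there but called above GFP in Double LKO. Alternatives were DESeq2 1.42.0 size factors in edgeR, no filter on low counts, the 7 libraries alone, controls split by floxed line, the line difference subtracted, the replicate number as a block, each library left out, limma 3.58.1 with voom and quality weights, and DESeq2. The fits were tested on simulated data.

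Genes named were the called genes with the most extreme changes, those of each class with the lowest p, and up to 5 called members of each list with the highest member not called, and H2-Q10, Rdh11 and others named for the lists or lines were chosen after their values were seen. The comparison, the lists and the rule were chosen with earlier results of these data known, and the alternatives for Double LKO against SCAP LKO and for library 2 were added after seeing the data. A few genes named by that rule are left out here. A count of binding peaks near genes, planned at first, was not made, because no annotation of build mm9 was used here.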

Additional observations from a re-analysis of the deposited data

Results flagged for a closer look

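In 210 groups of 4 or 6 libraries (70 genes in 3 groups), 24 had a highest or lowest library set apart by Dixon's test, which flags about 1 group in 20 by chance. No Double LKO group was examined, having 3 libraries.

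HDAC3 LKO library 2 accounted for 7 of them. It was the lowest of its group for Cyp51 (125 CPM), Gpd1 (587 CPM) and Tbl1xr1 (149 CPM), and the highest for Fads2 (865 CPM), Lyve1 (35.8 CPM), Slco2a1 (95.2 CPM) and Cyp2b9 (39.8 CPM). HDAC3 LKO library 3 was lowest for Pctp (197 CPM) and library 4 highest for Fdft1 (108 CPM).

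SCAP LKO library 4 was the highest for Srebf2 (20.4 CPM), Acacb (13.6 CPM), Mab21l3 (0.509 CPM) and Hp (4898 CPM), and the lowest for Acadm (294 CPM) and Nox4 (41.2 CPM). SCAP LKO library 1 was highest for Me1 (41.2 CPM) and lowest for Cyp4a12b (16.2 CPM), and library 3 was lowest for Pdk4 (1.67 CPM) and Atg16l2 (5.13 CPM).

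Among GFP controls, library 1 of the HDAC3-floxed line was highest for Fdps (46.8 CPM), Elovl3 (43.6 CPM), Hao1 (425 CPM) and Enho (19.8 CPM), and library 1 of the SCAP-floxed line for Insig1 (478 CPM).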

How the results depend on the processing

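No named gene called between Double LKO and HDAC3 LKO changed sign under any alternative run, and 24 of the 55 called genes among the 70 named kept their call in all of them. The counts depended more on the fit. Higher genes numbered 13, with 31 without the filter, 5 in the 7 libraries alone, 7 with the line subtracted, 144 by limma with voom, 45 by DESeq2 and 5 to 39 with a library left out. Lower genes numbered 144, with 94 in the 7 libraries alone, 60 with the line subtracted, 365 by limma with voom and 105 to 148 with a library left out. Raised and reversed genes numbered 49, with 30 in the 7 libraries alone, 125 by limma with voom and 35 to 55 with a library left out. They numbered 30 with controls by line and 10 with the line subtracted, where 513 genes were raised instead of 946. Lowered genes that were higher in Double LKO numbered 2, with 6 without the filter, 45 by limma with voom, 11 by DESeq2 and 0 to 5 with a library left out. Genes raised by HDAC3 loss with and without SCAP numbered 440, with 319 with controls by line, 719 by limma with voom and 330 to 576 with a library left out. Genes lowered in both numbered 216, with 141 with controls by line, 430 by limma with voom and 149 to 218 with a library left out. The difference of responses gave 0 calls, with 2 without the filter, 1 with controls by line, 6 by limma with voom, 15 by DESeq2 and 0 to 1 with a library left out. The cause of these differences was not tested.

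Whether library numbers pair the groups could not be decided from so few libraries. With group means removed, same-numbered libraries 2, 3 and 4 correlated at 0.179, 0.0585 and -0.00729. The value for libraries 2 was the highest of any pair, while Double LKO libraries 3 and 4 correlated best with HDAC3 LKO libraries of another number. With the replicate block the counts were 7 higher, 69 lower, 24 raised and reversed and 1 lowered and reversed.

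Precision is limited by 3 Double LKO libraries, of which library 2 is the shallowest, and by 2 GFP controls a line. A library left out of a group changes the spread shared by all groups. The planned count of peaks near genes was not run.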
